A study of Mus musculus with 18 samples.

Results

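Trimethylation of lysine 9 on histone H3 (H3K9me3) is the mark of constitutive heterochromatin. It is written by enzymes such as SETDB1 and the SUV39H pair, is read by HP1 proteins, and in mouse cells is known for covering satellite repeats, endogenous retroviruses and clusters of zinc finger genes. Many of these targets lie in long runs of neighbouring sites. Described here are the opposite cases, single H3K9me3 peaks that stand alone on an autosome of mouse embryonic fibroblasts. A member is a peak of the GFP H3K9me3 list on chromosomes 1 to 19 that has no other peak of that list within 100 kb, edge to edge, and that overlaps no GFP peak of H3K4me3, the mark of promoters in use. Of the 10885 peaks of the list, 9574 lay on these chromosomes and 1858 of them met the rule, 19.4% of the autosomal peaks and 14.6% of the bases they cover. Members were chosen by measured values, the GFP H3K9me3 and H3K4me3 peak positions. Their spacing, width and score in the GFP H3K9me3 list are therefore descriptions, while the Cre, H3Ac and H3K27me3 lists played no part in the choice. A further 319 peaks stood as far apart but overlapped H3K4me3.

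The cells were fibroblasts of a mixed B6;129 background that carry a conditional knockout allele of Rb, the retinoblastoma tumour suppressor. One culture received Adeno-Cre, a virus that delivers the recombinase that deletes the allele, and the other Adeno-GFP, a control virus that delivers a fluorescent protein. Neither received the 4F construct, and both were passaged at most 3 times before chromatin immunoprecipitation followed by sequencing for H3K9me3, H3K4me3, pan-acetylated H3 (H3Ac, found at promoters and enhancers in use) and H3K27me3 (laid down by Polycomb complexes). Each mark had 1 library per condition, so no difference below has a replicate check and no p-value is given. Brackets hold 95% intervals, which take peaks as independent and reflect counting error alone. How far Rb was deleted and how deep each library was cannot be read from the lists, and the H3K9me3 lists were of unequal length, with 3985 Cre and 10885 GFP peaks. Positions are in build NCBIM37, counted from 1, with no gene attached, since the gene tables at hand were on another build.

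The members were small and weak peaks. Their median width was 944 bases (929 to 962), their lower and upper quartiles were 786 and 1200 bases, and the widest spanned 4631 bases. The 6698 autosomal peaks without H3K4me3 that had a neighbour within 100 kb were wider, with a median of 1054 bases (1043 to 1064) and a maximum of 20637. The deposited score, the peak caller's own value with no unit, had a median of 74.2 (71.7 to 75.8) in members and 79.6 (78.6 to 80.6) in those neighboured peaks. Peaks without H3K4me3 that had a neighbour at 10 to 50 kb had a median width of 934 bases and a median score of 68.9. At 50 to 100 kb they were 936.5 bases and 70.8, so these peaks were no wider or stronger than members. The medians were higher within 1 kb, 1148.5 bases and 87.7, and at 1 to 10 kb, 1058 bases and 78.9. Between members and all neighboured peaks, the upper ends differed more than the medians. A score of at least 200 was reached by 63 members, 3.39% (2.62 to 4.32), against 7.94% (7.31 to 8.62) of the neighboured peaks. A width of at least 3000 bases was found in 7 members, 0.377% (0.152 to 0.775), against 5.11% (4.59 to 5.66). Wide members were the high-scoring ones, with a Spearman rho of 0.86 between score and width across the 1858 peaks, which come from 1 library and are not independent. At equal score the widths were close: peaks scoring 70 to 80 had medians of 966.5 bases in members and 997.5 in neighboured peaks. Only from a score of 150 upward did members stay clearly narrower, 1974 against 2341 bases. That band has no upper bound and neighboured peaks in it reached higher scores, so the widths there were not compared at equal score. From 200 upward the median scores were 244.4 in members and 268.0 in neighboured peaks.

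**Figure D1:**
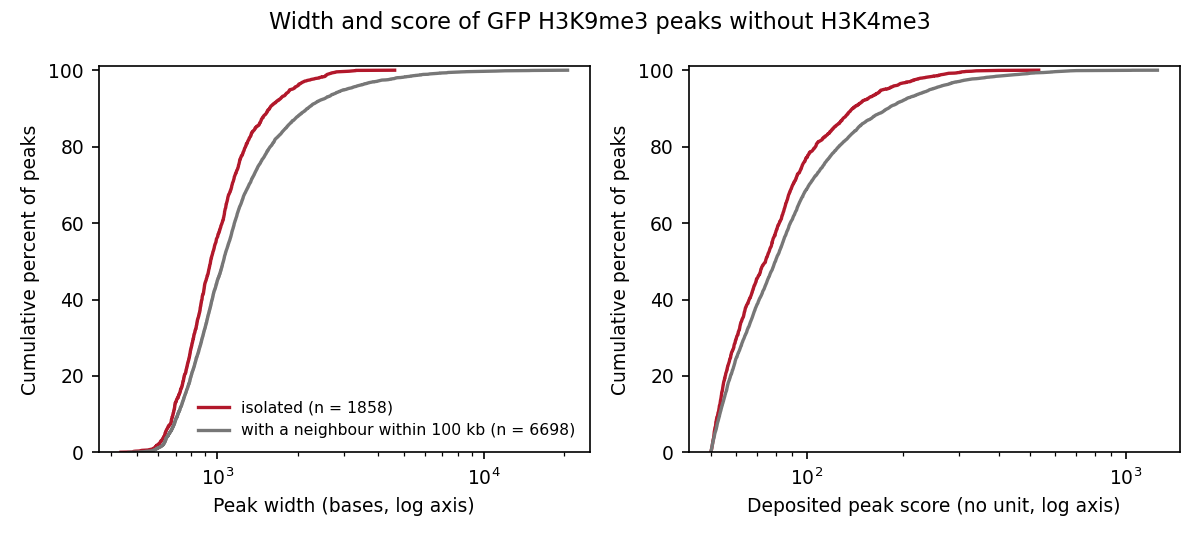
Cumulative percent of GFP H3K9me3 peaks without H3K4me3 by width (left, bases, log axis) and by deposited score (right, no unit, log axis), for 1858 isolated peaks and 6698 peaks with a neighbour within 100 kb. The isolated curves lie to the left and end earlier, at 4631 bases and a score of 532.9.

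The distance from a member to the nearest other GFP H3K9me3 peak had a median of 268 kb and reached more than 500000 bases in 401 members and more than 1000000 in 79. The limit of 100 kb cuts through a continuous range. The first 2 members inside it, at chr4:39899616-39900677 and at chr8:111474618-111475714, had their neighbours at 100225 and 100362 bases and scores of 71.55 and 107.9. The first 2 peaks without H3K4me3 outside it, at chr4:113721395-113722126 and at chr17:69292926-69293757, had theirs at 99860 and 99811 bases and scores of 67.24 and 62.07. None of these 4 peaks overlapped a Cre H3K9me3 peak.

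The highest-scoring member was also the widest. It spanned 4631 bases at chr6:89723409-89728039, where the stronger Cre peak had 1186 bases and a score of 115.3 and the GFP peak a score of 532.9. The Cre peaks on it together covered 38.4%. The next 4 members by score had no overlapping Cre H3K9me3 peak. They lay at chr10:57699734-57703038 with a GFP score of 399.2, at chr13:92913121-92916430 with 365.1, at chr8:66105399-66108455 with 339.5, and at chr6:145438432-145441354 with 333.5. The chromosome 10 region had a Cre H3K9me3 peak 1.58 kb away, close by but not on the same bases. For the regions on chromosomes 13, 8 and 6 the nearest Cre peak was 404, 285 and 636 kb away. Next among those without a Cre peak was the region at chr9:76275619-76278808, which spanned 3190 bases with a GFP score of 328.3. Its nearest Cre peak lay 1364 kb away. Strong and wide members were found both with and without a Cre counterpart.

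The main comparison was of H3K9me3 at these sites in Cre and GFP cells. A Cre H3K9me3 peak overlapped 180 of the 1858 members by at least 1 base, 9.69% (8.38 to 11.1), where the share over all 9574 autosomal GFP peaks was 18.9%. Among the 7716 other autosomal peaks 21.1% (20.2 to 22.0) overlapped one, a difference of -11.4 percentage points (-13.0 to -9.74). Part of that distance went with score: reweighted to the members' score deciles, the other peaks reached 15.2%, and the difference was -5.50 points (-7.03 to -3.96). Against the nearest class, neighboured peaks without H3K4me3, the shares were 9.69% and 16.5% (15.7 to 17.5), a difference of -6.85 points (-8.41 to -5.18), which came to -3.81 (-5.35 to -2.26) at equal score deciles and to -2.82 (-4.35 to -1.30) at equal score and width quintiles. The difference lay with peaks that had a neighbour within 10 kb, a split made after the data were seen. Of the 4935 such peaks 19.3% had a Cre peak, and at equal score deciles the members differed from them by -5.18 points (-6.81 to -3.54). Of the 1763 peaks with a neighbour at 10 to 100 kb 8.79% had one, and the members' 9.69% differed from theirs by 0.896 points (-0.999 to 2.78), or by 0.248 (-1.66 to 2.155) at equal score deciles, an interval that includes 0. With a minimum score of 100 in every list before the rule, the share was 5.54% of the 1101 peaks then isolated. With equal numbers of top-scoring H3K9me3 peaks it was 15.1%. Both settings remove weak peaks first, so that peaks outside the 1858 members become isolated and come in. Of the members themselves 425 score at least 100, and 74 of these had a Cre peak. The difference from all other autosomal peaks, those with H3K4me3 included, kept its direction in all 8 alternative settings. Those settings were not rerun against neighboured peaks without H3K4me3, nor against peaks with a neighbour at 10 to 100 kb.

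In percentage points the classes differed most at high scores. Below a score of 100 a Cre peak overlapped 7.40% of members and 9.26% of neighboured peaks without H3K4me3, a difference of -1.87 points (-3.39 to -0.190). From 100 to 150 the shares were 11.2% and 19.8%, a difference of -8.58 points (-12.6 to -3.77). At 150 and above they were 28.9% (21.7 to 36.8), 43 of 149 members, and 48.6% (45.4 to 51.9), a difference of -19.7 points (-27.1 to -11.4). In the lowest band, 50 to 60, 33 of 553 members (5.97%) and 5.27% of the neighboured peaks had a Cre peak, with intervals that overlap. The top band has no upper bound, and neighboured peaks in it were wider and reached higher scores. Cut at 200, the shares were 20.9% and 35.3% from 150 to 200, a difference of -14.3 points (-23.0 to -3.58), and 39.7% and 58.6% from 200 upward, a difference of -19.0 points (-30.8 to -5.92). Median scores were 168.6 and 172.7 in the first of these bands and 244.4 and 268.0 in the last.

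**Figure D2:**
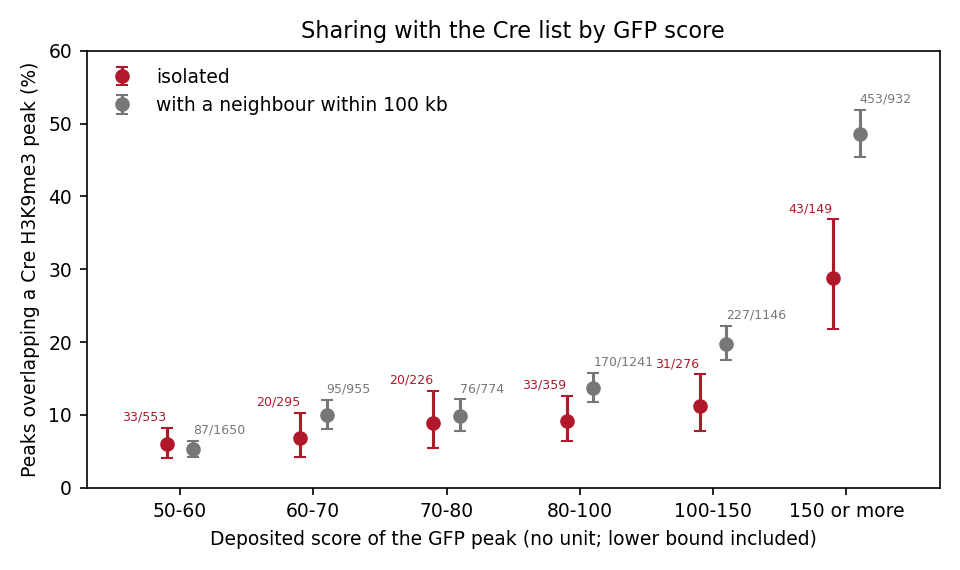
Percent of GFP H3K9me3 peaks without H3K4me3 that overlap a Cre H3K9me3 peak, by deposited GFP score, for isolated peaks (left of each pair) and peaks with a neighbour within 100 kb (right), with exact 95% binomial intervals and the counts beside them. The classes lie together at 50 to 60 and apart at 150 and above, 28.9% against 48.6%.

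Sharing did not step down at 100 kb. It was highest for peaks with a neighbour within 1 kb, 24.6% (22.9 to 26.3), was 13.7% (12.4 to 15.2) at 1 to 10 kb, and then ran level: 8.89% at 10 to 50 kb, 8.60% at 50 to 100 kb, and, within the members, 8.38% (6.38 to 10.8) at 100 to 200 kb, 10.1% (8.11 to 12.4) at 200 to 500 kb and 11.0% (8.09 to 14.4) beyond 500 kb. The intervals of the last 5 bands overlap. At scores of at least 100 the share was 41.0% (37.9 to 44.1) within 1 kb and 26.9% (23.7 to 30.2) at 1 to 10 kb. Members scoring at least 100 gave 12.2% (7.61 to 18.2), 20.3% (14.7 to 27.03) and 21.4% (13.2 to 31.7) in their 3 bands, where peaks with a neighbour at 10 to 50 kb and 50 to 100 kb gave 22.9% (17.7 to 28.8) and 19.8% (13.3 to 27.9). Peaks within 10 kb of another had the higher median scores, 87.7 within 1 kb and 78.9 at 1 to 10 kb, against 68.9 to 76.4 in the bands beyond. At scores below 100 the share was 14.1% (12.4 to 15.9) within 1 kb, 8.02% (6.76 to 9.43) at 1 to 10 kb, 5.43% at 10 to 50 kb and 5.41% at 50 to 100 kb, and 7.11%, 7.21% and 8.20% in the members' 3 bands. At low scores only the band within 1 kb had an interval apart from all others. The members' 3 low-score shares lay above those at 10 to 50 kb and 50 to 100 kb, with overlapping intervals. At scores of at least 100 they lay below the 22.9% at 10 to 50 kb and on both sides of the 19.8% at 50 to 100 kb. Those intervals overlap too.

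**Figure D3:**
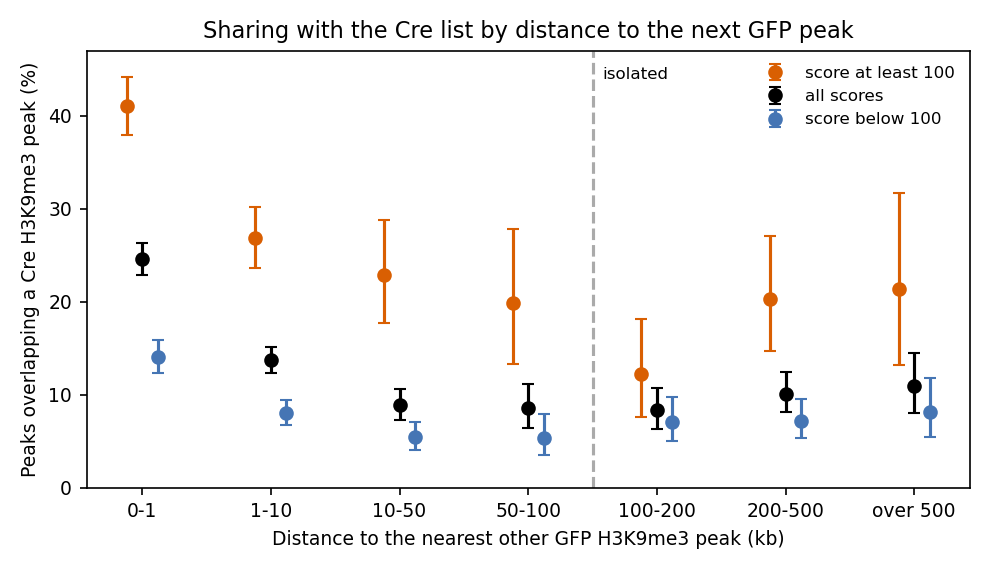
Percent of autosomal GFP H3K9me3 peaks without H3K4me3 that overlap a Cre H3K9me3 peak, by distance to the nearest other GFP H3K9me3 peak (kb), for all scores and for scores below and of at least 100, with exact 95% binomial intervals. Points right of the dashed line are the isolated peaks. The all-score share is 24.6% within 1 kb and between 8.38% and 11.0% in every band beyond 10 kb.

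Where both lists had a peak, the Cre peak was usually the narrower. In 175 of the 180 members the overlap was with 1 Cre peak, and the Cre peak was wider than the member in 36 and narrower in 144. Median widths were 786 bases in Cre and 1084 in GFP cells, with a median ratio of 0.718 (0.664 to 0.779). Neighboured peaks without H3K4me3 gave a ratio of 0.634 (0.606 to 0.663). Cre peaks covered a median of 63.4% of a shared member (57.1 to 66.5), at least 50% of it in 117 members and all of it in 10. The Cre list has the smaller number of peaks, its depth is unknown, and the part of depth or enrichment in these widths was not tested.

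Shared members were also isolated in the Cre list in most cases. The Cre partner had no other Cre H3K9me3 peak within 100 kb for 152 of the 180, 84.4%, against 19.7% of the partners of neighboured peaks without H3K4me3. The Cre list is sparser, so that isolation is easier to meet in it. Strength in the 2 libraries hardly ran together: over the 180 shared members the Spearman rho was 0.13 between Cre and GFP scores and 0.14 between widths, and over the 1108 shared neighboured peaks 0.37 and 0.56. These are descriptions over peaks that share their 2 libraries and, among neighboured peaks, their neighbourhood. The members span a narrower range of score.

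In the strongest shared members, which were wide, Cre peaks mostly covered a minor part. Over all 180 shared members the median covered was 63.4%. After the chromosome 6 region already given, the next was at chr5:47331626-47334217, alone within 1023 kb, with a Cre score of 57.76 and a GFP score of 312.5. At chr14:17452912-17455686 the scores were 53.18 in Cre and 305.9 in GFP cells, and at chr4:92555628-92558237 they were 83.19 and 304.0. Cre peaks covered 27.7%, 23.3% and 18.9% of these 3 regions. Cre peaks together covered 69.9% of the region at chr1:10455946-10458748, where the stronger Cre peak scored 188.1 and the GFP peak 302.3. At chr15:8867506-8870772, also among the 5 widest members, 20.9% was covered, with scores of 61.02 in Cre and 302.1 in GFP cells. In each of these regions the Cre list held a peak narrower than the GFP one at the edge of or inside it.

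A Cre H3K9me3 peak lay within 1 kb without touching in 20 members, between 1 and 10 kb in 44 and between 10 and 100 kb in 103, and 1511 members, 81.3% (79.5 to 83.1), had none within 100 kb. Neighboured peaks without H3K4me3 had none within 100 kb in 37.8%. Cre H3K9me3 peaks covered 5.99% of the central kilobase of members, 0.305% of the bases 2 to 5 kb away and 0.0319% of those 21 to 50 kb away. Members with a Cre peak on them outnumbered those with one beside them at up to 10 kb, 180 against 20 and 44.

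**Figure D4:**
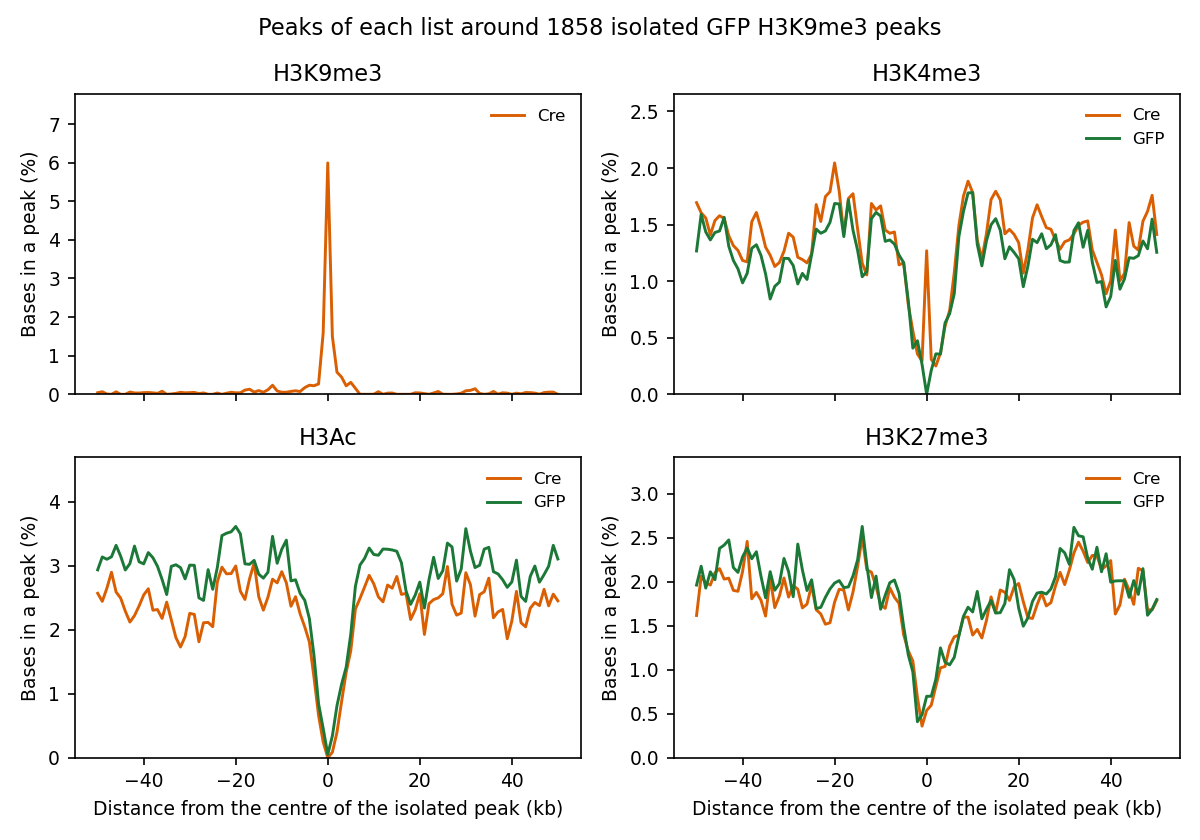
Percent of bases inside a peak of each Cre and GFP list in 1 kb bins from 50 kb before to 50 kb after the centres of the 1858 isolated GFP H3K9me3 peaks. Cre H3K9me3 stands at 5.99% at the centre, H3Ac falls to 0 in Cre and 0.0528% in GFP cells, and Cre H3K4me3 has a narrow maximum of 1.27% at the centre inside a trough. The GFP H3K9me3 list is not drawn and the GFP H3K4me3 value of 0 is set by the rule.

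The same rule applied to the Cre lists gave 1101 isolated Cre peaks, with a median width of 729 bases and a median score of 60.2. A GFP H3K9me3 peak overlapped 424 of them, 38.5% (35.6 to 41.5), where the share over all autosomal Cre peaks was 59.2%. The other autosomal Cre peaks reached 68.7% (66.8 to 70.5), a difference of -30.1 points (-33.5 to -26.7), and of -21.9 (-25.6 to -18.2) at equal score deciles. Of the 424, the GFP partner was itself isolated by the full rule in 140 and had a GFP neighbour but no H3K4me3 in 207. Of the 677 without a GFP peak, 302 had one within 100 kb. At a score of at least 100, 73 of the 106 isolated Cre peaks, 68.9%, had a GFP peak. The share of other Cre peaks at such scores is not given, so this value cannot be set against the 68.7% at all scores. The difference of -21.9 points is the one at equal score deciles. The strongest isolated Cre peak without one was broad, 10369 bases at chr8:56198819-56209187 with a score of 303.4, with the nearest GFP peak 461 kb away. The next 4 lay at chr13:77578018-77578661, with a score of 182.4, at chr11:54285239-54286355, with 176.3, at chr18:42094578-42096070, with 173.2, and at chr15:91551927-91553448, with 159.99.

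Acetylated H3 was nearly absent from the members. A Cre H3Ac peak overlapped 0 of the 1858, which allows a share of up to 0.161%, where the share over all autosomal GFP H3K9me3 peaks was 0.355%. A GFP H3Ac peak overlapped 4, 0.215% (0.0587 to 0.550), against 0.449% of all autosomal peaks. Neither share differed beyond counting error from that of neighboured peaks without H3K4me3, 0.134% for Cre and 0.179% for GFP H3Ac, with differences of -0.134 points (-0.255 to 0.0816) and 0.0361 points (-0.151 to 0.382). The 4 regions touched acetylated ones at an edge. At chr5:66939122-66940187, with an H3K9me3 score of 66.65, a GFP H3Ac peak of 7037 bases scoring 2877 covered 23.7% of the member. At chr18:85048086-85048975 the Cre and GFP H3K9me3 scores were 94.18 and 56.7, a GFP H3Ac peak scoring 356.7 covered 22.2% and a Cre H3K4me3 peak scoring 221.3 covered 71.9%. The other 2, at chr7:105663137-105663974 and at chr6:120083960-120084938, had H3K9me3 scores of 54.21 and 53.76 and H3Ac scores of 133.5 and 94.3. No GFP H3Ac peak covered 50% of a member.

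Acetylated regions lay closer to members than to neighboured peaks, although none sat on them in the Cre list. The median distance to the nearest H3Ac peak was 60.5 kb (54.5 to 67.6) for the Cre list and 58.2 kb (51.2 to 63.5) for the GFP list. For neighboured peaks without H3K4me3 it was 125 kb (118 to 133) and 120 kb (115 to 127). H3Ac peaks covered 2.60% of the bases 6 to 20 kb from a member's centre in Cre and 3.03% in GFP cells, against 1.398% and 1.61% around neighboured peaks. The central kilobase was at 0% in Cre and 0.0528% in GFP cells, and 2 to 5 kb away the coverage was 1.26% and 1.55%. At 21 to 50 kb it was 2.38% and 2.99%, so that in both libraries acetylation was lowest at the member and level from 6 kb outward. Neighboured peaks without H3K4me3 showed a low of this kind too. Around them coverage was 0.0414% in Cre and 0.0599% in GFP cells at the central kilobase. It was 0.572% and 0.693% at 2 to 5 kb.

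Sharing with the Cre list varied with that distance. A Cre H3K9me3 peak overlapped 14.8% (11.1 to 19.2) of the 324 members within 10 kb of a GFP H3Ac peak, 11.8% at 10 to 50 kb, 9.74% at 50 to 200 kb and 3.72% (2.22 to 5.81) of the 484 members farther than 200 kb. Median scores in these 4 bands were 75.1, 80.2, 69.3 and 68.3. Among members scoring below 100 the first and last bands gave 11.5% (7.79 to 16.2) and 3.04% (1.58 to 5.25), and among those of at least 100 they gave 24.7% (15.8 to 35.5) and 6.74% (2.51 to 14.1). Neighboured peaks without H3K4me3 gave 21.6% (18.6 to 24.9) within 10 kb, 16.1% at 10 to 50 kb and 19.5% at 50 to 200 kb. Beyond 200 kb they gave 13.3% (12.04 to 14.7), so their share did not fall steadily. Those scoring below 100 gave 15.3%, 9.62%, 8.59% and 8.0% in the 4 bands. Those of at least 100 gave 35.6%, 30.1%, 39.3% and 27.5%. The bands were chosen after the distances had been seen, and whether the course with distance differs between the classes was not tested.

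The Polycomb mark was rare on members as well. A Cre H3K27me3 peak overlapped 15 of them, 0.807% (0.453 to 1.33), and a GFP one 18, 0.969% (0.575 to 1.53), where the shares over all autosomal peaks were 2.21% and 2.6%. Neighboured peaks without H3K4me3 lay lower, at 0.299% and 0.314%, with differences of 0.509 points (0.152 to 1.04) and 0.655 points (0.264 to 1.22). Peaks with H3K4me3 stood far higher. Of the 319 peaks that were as isolated but overlapped GFP H3K4me3, 26.3% (21.6 to 31.5) carried Cre and 30.4% (25.4 to 35.8) GFP H3K27me3, so that without the H3K4me3 criterion the isolated class would stand at 4.55% and 5.28%. The mark was in both libraries at 7 members, in the Cre library alone at 8 and in the GFP library alone at 11. A Cre H3K9me3 peak overlapped 0 of the 18 members with GFP H3K27me3, with an exact interval of 0 to 18.5% that includes the 9.69% over all members.

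The 5 highest-scoring members with GFP H3K27me3 had H3K9me3 scores between 85.65 and 107.1. The first, at chr6:145285900-145286964, was covered to 81.4% by a GFP H3K27me3 peak of 867 bases scoring 81.44, and the nearest Cre H3K27me3 peak lay 1129 kb away. The second, at chr19:59331059-59331955, was covered wholly in both libraries, by a Cre H3K27me3 peak of 4296 bases scoring 908.1 and a GFP one of 2145 bases scoring 128.7. The other 3, at chr3:146045607-146046483, at chr4:136802517-136803664 and at chr6:73028073-73029028, overlapped GFP peaks scoring 134.9, 138.9 and 52.16 and no Cre one. No GFP H3K27me3 peak on these 5 members scored above 138.9.

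Promoter-type methylation was kept out of the GFP side by the rule, but the Cre H3K4me3 list was not used in it. A Cre H3K4me3 peak overlapped 32 members, 1.72% (1.18 to 2.42), where the share over all autosomal GFP H3K9me3 peaks was 5.54%. In neighboured peaks without H3K4me3 it was 1.05%, a difference of 0.677 points (0.108 to 1.41). The H3K4me3 peaks concerned were weak, with a median score of 76.8, against 886.9 in the whole Cre list, and a highest of 221.3. Of these 32 members 14 also had a Cre H3K9me3 peak, 43.8% (26.4 to 62.3), against 9.09% (7.81 to 10.5) of the 1826 others, a difference of 34.7 points (19.01 to 51.6). Cre H3K9me3 was the more frequent at the members with Cre H3K4me3, which number only 32.

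The strongest of them was at chr2:122506832-122508274. Its H3K9me3 score was 356.1 in Cre and 257.2 in GFP cells, the highest Cre score of any shared member, and Cre peaks of H3K9me3 and H3K4me3 (score 107.7) covered 100% and 99.9% of it. Next with both was the region at chr6:86885226-86886714, which had H3K9me3 scores of 106.6 in Cre and 168.2 in GFP cells and a Cre H3K4me3 score of 190.4. The other 3 of the 5 highest-scoring, at chr10:39324104-39326217, at chr14:15585247-15586923 and at chr15:75368463-75370249, had Cre H3K4me3 scores of 97.03, 84.37 and 50.3 and no Cre H3K9me3 peak. The isolated peaks left out for GFP H3K4me3 had a median width of 1268 bases and a median score of 113.7, and a Cre H3K9me3 peak overlapped 36.4% (31.1 to 41.9) of them. At equal score deciles the members' share differed from theirs by -12.04 points (-16.9 to -7.20).

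Most members carried no other mark. No peak of H3K4me3, H3Ac or H3K27me3 in either library overlapped 1799 of the 1858, 96.8% (95.9 to 97.6), where the share over all autosomal peaks was 87.6% and that of neighboured peaks without H3K4me3 98.3% (98.0 to 98.6). The absence of GFP H3K4me3 is set by the rule, and those neighboured peaks lack it too. Being unmarked did not set members apart, and they were unmarked slightly less often than those neighboured peaks, with intervals that do not overlap. No peak of any other list, Cre H3K9me3 included, lay within 10 kb of 1173 members, 63.1%, against 46.4% of all autosomal and 48.9% of neighboured peaks without H3K4me3. None lay within 100 kb of 482 members, 25.9%, against 16.2% and 15.9%. Cre H3K9me3 peaks were closer to neighboured peaks, as given above. The nearest H3K27me3 peak was at a median of 207 kb for the Cre list and 191 kb for the GFP list, against 380 and 361 kb for neighboured peaks without H3K4me3. Members lay nearer to Polycomb-marked as well as to acetylated regions than the neighboured peaks did.

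The members were spread more evenly over the autosomes than all H3K9me3 peaks of the list. Counted to the last peak end of any list, there were between 5.28 per 10 Mb on chromosome 12 and 8.92 on chromosome 10, while all H3K9me3 peaks ranged from 23.9 per 10 Mb on chromosome 2 to 73.6 on chromosome 12. Members made up 7.17% of the peaks on chromosome 12 and 31.6% on chromosome 18. A more even spread follows in part from the rule, which allows at most 1 member per 100 kb and takes out dense stretches. With each chromosome cut into 10 equal parts from its start, a part held between 9.26% and 11.1% of the members, whereas the other peaks ranged from 6.04% in part 9 to 15.8% in part 2. The share with a Cre H3K9me3 peak ran from 1 of 45 members on chromosome 19, 2.22% (0.0562 to 11.8), to 13.3% (7.93 to 20.4) on chromosome 5. The intervals of all 19 chromosomes include the share of 9.69% over all members except that of chromosome 3, 4.35% (1.61 to 9.22), with 6 of 138.

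**Figure D5:**
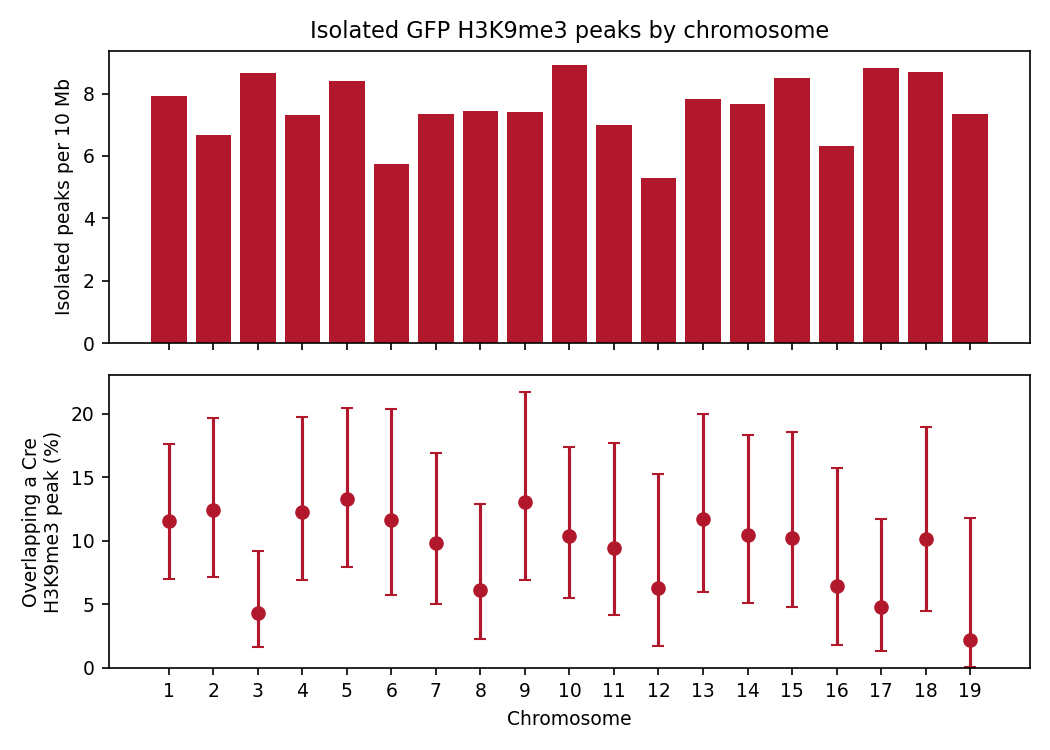
Isolated GFP H3K9me3 peaks per 10 Mb of each autosome (top) and the percent of them that overlap a Cre H3K9me3 peak with exact 95% binomial intervals (bottom). Numbers per 10 Mb lie between 5.28 and 8.92, and the shares between 2.22% on chromosome 19 and 13.3% on chromosome 5.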

How the data were processed

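The deposited files used were 8 peak lists, 1 for each of 4 marks in Cre and GFP cells, and 10 further samples of the series were not analysed here. The build was NCBIM37, per the submitters' processing notes, which also name MACS 1.4.1, bedtools 2.16.2, SAMtools 0.1.18 and BWA beside RNA tools. A list gives each peak's chromosome, start, end, name and a deposited score with no unit, whose lowest value was 50 to 50.02. The control library of each list, its duplicate filter and its threshold, not given in the sources used here, were taken as unknown. The labels number the 8 immunoprecipitated libraries and the Cre input as replicate 3 and the GFP input as replicate 1. Depth was unknown, and it can set the length of a list and the width of its peaks.

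Scores of different lists are given side by side and only their ranks were related. Overlap meant at least 1 shared base. Where several peaks overlapped, the highest-scoring was the partner. Shares carry exact (Clopper-Pearson) intervals. Differences of shares carry Newcombe intervals or, where reweighted to score deciles or to score and width quintiles, normal ones, and medians carry order-statistic intervals. A count of 0 was read against 3 counts. The members and classes were chosen with earlier results of these data known. Regions named are the 5 leading ones by score or width in each class, and the 2 on either side of the distance limit. The score bands, distance bands and profiles were chosen after the data were seen. The overlap code was checked on 12 simulated lists of 3600 peaks, with 0 differences from a direct search. The tools were Python 3.11.15 with SciPy 1.17.1, NumPy 2.4.6, pandas 2.3.3 and matplotlib 3.10.9. No sequence is shown, since no genome of this build was used here. Other distances, overlaps, minimum scores, list lengths, a merge of close peaks and a rule without H3K4me3 were tried, and the closing section gives their effect.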

Additional observations from a re-analysis of the deposited data

How the results depend on the processing

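Of 98 recomputed values, 49 stayed within the counting error of the main value (within 1.5 times for the number of members) and 49 moved. Of the differences in sharing, the only values that could change sign, 0 did so. The cause was not tested unless the setting itself gives it. With 1 library per mark and condition, no library could be left out. No paired analysis was possible because each group had 1 sample. Shares are in percent and differences in points, and the order is members, then other autosomal peaks.

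Isolation distance: at 200000 bases there were 1202 members, 20.1% of other peaks overlapped Cre H3K9me3, and the difference was -9.72. At 50000 bases the other peaks stood at 22.1%. A minimum score of 100 in every list before the rule gave 1101 members with a median width of 1493 bases and a median score of 132.8. Only 425 of the 1858 main members score at least 100, so most of the 1101 became isolated once weak peaks were removed. A Cre H3K9me3 peak then overlapped 5.54% of members and 26.9% of other peaks, a difference of -21.4, or -10.1 at equal score deciles. Shares with Cre H3K4me3, Cre H3K27me3 and GFP H3K27me3 were 1.18%, 0.272% and 0.454%, and 55.7% of isolated Cre peaks had a GFP peak. With equal numbers of top-scoring H3K9me3 peaks there were 1077 members, with a median width of 1437 bases and a median score of 125.2. The Cre H3K9me3 shares were 15.1% and 45.1%, a difference of -29.9, or -17.4 at equal score deciles. Cre and GFP H3K27me3 overlapped 0.186% and 0.279%, and 20.5% of isolated Cre peaks had a GFP peak.

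Merging peaks within 1000 bases gave a median width of 994 bases and a median score of 77.2. Overlap of at least 50% gave Cre H3K9me3 shares of 6.30% and 13.3%, differences of -7.04 and, at equal score deciles, -3.32, a GFP H3Ac share of 0% and 33.4% of isolated Cre peaks with a GFP peak. Counting a peak within 1000 bases gave 26.9% of other peaks, differences of -16.1 and -10.2, shares of 0.700% for Cre and 1.29% for GFP H3Ac and of 1.67% for Cre and 1.99% for GFP H3K27me3, and 44.5% of isolated Cre peaks. Without the H3K4me3 criterion the members had a median width of 974 bases and a median score of 77.2, Cre H3K9me3 overlapped 13.6%, the differences were -6.86 and -3.20, Cre H3K4me3 overlapped 6.34%, and Cre and GFP H3K27me3 4.55% and 5.28%. The alternatives for the score-weighted difference were added after the data were seen. Over the settings that change the rule or the lists, 29 named regions gave 155 values, 144 of them still isolated. All values no longer isolated came from the longer isolation distance. The other settings shorten the limit, drop the H3K4me3 criterion, remove peaks or merge close ones, which cannot bring a neighbour nearer. Those settings therefore could not test isolation, and regions whose own peak was removed gave no value.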

Other observations

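The following descriptions belong to no comparison above. The member with the most distant neighbour lay at chr9:49759881-49761507, 3010 kb from the next GFP H3K9me3 peak, with a score of 278.2 and the nearest Cre H3K9me3 peak 1993 kb away. It was chosen after its values were seen. On chromosome X, which the rule leaves out, 107 of the 958 GFP H3K9me3 peaks met the same criteria, with a median width of 865 bases and a median score of 62.9. Of these, 3, 2.80% (0.582 to 7.98), overlapped a Cre H3K9me3 peak. The share over all 958 is not given, so this value cannot be read as a trait of the isolated peaks there.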
